A study of Homo sapiens with 12 samples.

Results

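The 6 RUNX factors and cofactors described here are RUNX1, RUNX2, RUNX3, CBFB, RUNX1T1 and CBFA2T3. They were taken by gene symbol from a table of 58365 gene lines that covers 56593 distinct symbols, and each stood on a single line. H1, an established human embryonic stem cell line, was driven toward blood with activin A and BMP4 and then with VEGF and bFGF. TruSeq libraries of undifferentiated H1 cells, APLNR+ cells of day 2, CD31+CD34+ cells of day 5 and CD43+ cells of day 8 were compared, with 3 libraries per population. No genotype differed between the groups, all of which came from the same line, and the study treats the 4 populations as stem cells, mesoderm, hemogenic endothelial progenitors and hematopoietic progenitors. The study's methods speak of independent experiments for its analyses in general, but the labels do not say that the 3 libraries of a population came from separate cultures, so the p-values measure the spread between these libraries, which may be partly technical.

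The RUNX proteins are transcription factors that share a DNA-binding Runt domain. CBFB encodes their common partner, CBF-beta, which binds no DNA by itself but strengthens DNA binding by the RUNX subunit and protects it from degradation. RUNX1 is required for the formation of blood cells from hemogenic endothelium, RUNX2 for bone formation, and RUNX3 has roles in T cells and sensory neurons. RUNX1T1 (ETO) and CBFA2T3 (ETO2, MTG16) encode corepressors that bring histone deacetylases to DNA-bound factors, and both are known from fusions with RUNX1 in leukemia.

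RUNX genes are read from a distal and a proximal promoter, and RUNX proteins bind the sequence ACCACA or its relative ACCGCA. The sequences below are shown because each RUNX gene itself carries this site in or near the start of at least 1 distal transcript. The longest run of bases shared by the RefSeq windows around the distal starts of RUNX2 and RUNX3 was 18 bases long and holds ACCACA in 2 copies. Of 35116 promoter windows of 300 bases (250 before and 50 after a gene's start, GRCh38.p14), 2 held the run on either strand. The same 18 bases stood in 4 of 17 RUNX1 transcripts of GENCODE release 29, all of them among the 11 that begin over 1000 bases upstream of the RefSeq start of RUNX1. Each line gives 30 bases, 5′ to 3′ along the gene, with the shared run in capitals. The RUNX2 bases lie at chr6:45328338-45328367 on the plus strand and the RUNX3 bases at chr1:24965120-24965149 on the minus strand, both GRCh38.p14, and the RUNX1 bases are from a distal transcript of RUNX1, on chromosome 21.
RUNX1: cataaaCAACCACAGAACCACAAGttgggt
RUNX2: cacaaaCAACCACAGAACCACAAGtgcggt
RUNX3: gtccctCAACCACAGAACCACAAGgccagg
The run began 15 bases into the RUNX2 transcript, 133 bases before the distal RUNX3 start and at base 63 of the RUNX1 transcript. ACCACA or its reverse complement TGTGGT occurred in 13.1% of all windows, at 4 places in the distal RUNX2 window and 2 in the distal RUNX3 window. It occurred in neither proximal window, nor in the RUNX1 or CBFA2T3 window. ACCGCA or TGCGGT occurred in 7.29% of all windows and, among the members, at 1 place in the distal RUNX2 window.

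The promoters of the RUNX1 and CBFA2T3 windows are shown because both genes rose between the APLNR+ and CD31+CD34+ populations, and because their base composition differs from that of the distal RUNX2 start. The 250 bases before each start are given 5′ to 3′ along the gene, both on the minus strand of GRCh38.p14, with CG pairs in capitals.
RUNX1, chr21:34888700-34888949: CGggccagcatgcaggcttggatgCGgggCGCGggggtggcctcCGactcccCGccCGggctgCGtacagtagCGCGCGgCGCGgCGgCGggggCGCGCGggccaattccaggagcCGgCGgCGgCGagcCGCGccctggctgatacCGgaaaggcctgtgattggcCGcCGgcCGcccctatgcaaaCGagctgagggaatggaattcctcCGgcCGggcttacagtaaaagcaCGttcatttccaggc
CBFA2T3, chr16:88941351-88941600: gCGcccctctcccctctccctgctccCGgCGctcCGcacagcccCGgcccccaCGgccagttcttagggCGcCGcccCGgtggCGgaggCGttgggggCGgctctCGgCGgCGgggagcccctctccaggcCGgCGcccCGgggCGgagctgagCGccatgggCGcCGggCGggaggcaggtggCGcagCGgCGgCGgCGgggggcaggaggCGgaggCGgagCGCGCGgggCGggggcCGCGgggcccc
In GENCODE release 29 no exon of any gene overlaps either stretch, and 6 longer RUNX1 transcripts and 5 longer CBFA2T3 transcripts pass over them as intron. The 300-base windows of RUNX1 and CBFA2T3 held 40 and 46 CG pairs, against a median of 14 over all windows and 2 in the distal RUNX2 window. The proximal windows of RUNX2 and RUNX3, genes that stayed near 0, held 39 and 38, close to that of RUNX1. GATAAG, which the GATA proteins bind, was searched on both strands and occurred in 6.36% of all windows. The ETS factor site CCGGAAG, searched likewise, occurred in 10.3%. The windows of the members held neither. CBFB and RUNX1T1 were not matched in the RefSeq table. The expression values are per gene, so which promoter was used was not measured.

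The values are FPKM, fragments per unit of transcript length and of sequencing depth, as the authors deposited them. Summed FPKM ranged from 568036 to 1576040 per library, and protein-coding genes held 23.6% to 81.1% of it. Relative depth, read from the spacing of the lowest values, ranged from 0.557 to 1.26 of that of CD43+ replicate 3, and replicate 1 was the shallowest library of each population. The antigens that name the populations were present in them. APLNR averaged 383 FPKM in APLNR+ cells and 403 FPKM in CD31+CD34+ cells. PECAM1 (CD31) averaged 55.2 FPKM in CD31+CD34+ cells and more, 95.9 FPKM, in CD43+ cells. CD34 and SPN (CD43) were highest where the labels name them, at 47.7 FPKM in CD31+CD34+ and 75.5 FPKM in CD43+ cells. PTPRC, which encodes the pan-leukocyte antigen CD45, averaged 0.197 FPKM in CD43+ cells.

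RUNX1 was nearly silent in stem cells and rose at every step, and stood above 88.5% of tested genes in CD43+ cells. Its 3 H1 libraries held 0.0866, 0.208 and 0.0946 FPKM, and its 3 APLNR+ libraries 2.06, 1.96 and 1.82 FPKM. In CD31+CD34+ cells it stood at 8.88, 8.72 and 10.3 FPKM, and in CD43+ cells at 35.5, 38.1 and 40.0 FPKM. No library of a later population fell within the range of an earlier one. The means were 0.130 ± 0.0678, 1.95 ± 0.122, 9.29 ± 0.868 and 37.9 ± 2.25 FPKM (SD, n = 3). Among the 14840 tested genes, 4.04% had a lower mean than RUNX1 in H1 cells and 88.5% had a lower mean in CD43+ cells.

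The change of RUNX1 was tested with limma on log2(FPKM + 1), with Benjamini-Hochberg adjustment over the 14840 genes that reached 1 FPKM in at least 3 libraries. Calls of raised or lowered needed both an adjusted p below 0.05 and a 2-fold or greater change. Fold changes on this scale understate those of low genes. RUNX1 rose by 1.38 ± 0.10 log2 units (SE) from H1 to APLNR+ cells (adjusted p = 1.37e-07). It rose by 1.80 from APLNR+ to CD31+CD34+ cells (adjusted p = 9.87e-09) and by 1.92 from CD31+CD34+ to CD43+ cells (adjusted p = 1.08e-08). From H1 to CD43+ cells the change was 5.11 log2 units (adjusted p = 9.72e-13). The ratio of the mean FPKM was largest at the first step, where the H1 mean was only 0.130 FPKM. It was 4.77 at the middle step, from APLNR+ to CD31+CD34+ cells, and 4.08 at the last. With 0.1 FPKM added in place of 1, the changes of RUNX1 at the 3 steps were 3.19, 2.20 and 2.02 log2 units. Which step had the largest rise therefore depended on the value added. In bulk libraries, more cells that express a gene and more RNA per cell cannot be told apart.

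RUNX2 and RUNX3 stayed far below RUNX1 in every differentiated population. RUNX2, the bone factor, ranged from 0.0272 to 0.191 FPKM over the 12 libraries and RUNX3 from 0.0479 to 0.452 FPKM, so that neither passed the filter on low values. Both had their highest mean in CD31+CD34+ cells, at 0.172 ± 0.0329 FPKM for RUNX2 and 0.330 ± 0.106 FPKM for RUNX3. RUNX2 held 0.0272, 0.0772 and 0.112 FPKM in H1, 0.0491, 0.0794 and 0.0566 in APLNR+, 0.190, 0.191 and 0.134 in CD31+CD34+ and 0.0446, 0.143 and 0.0372 in CD43+ libraries. Its CD31+CD34+ libraries lay above all H1 and APLNR+ libraries, but overlapped those of CD43+ cells through replicate 2.

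RUNX3 held 0.0479, 0.159 and 0.0799 FPKM in H1 cells and 0.159, 0.161 and 0.149 FPKM in APLNR+ cells. Its CD31+CD34+ libraries, at 0.452, 0.267 and 0.269 FPKM, were above all 9 others, and its CD43+ libraries held 0.114, 0.104 and 0.112 FPKM. In an exact permutation test over all 15400 divisions of the 12 libraries into 4 populations, chosen once both genes were seen to miss the filter, p was 0.0544 for RUNX2 and 0.00305 for RUNX3. The mean FPKM of RUNX3 was 2.99-fold higher in CD31+CD34+ than in CD43+ cells, and in limma without the filter, over 34116 genes, the change of log2(FPKM + 1) was −0.26 (adjusted p = 0.00517). Values under 0.5 FPKM cannot change by 1 log2 unit on that scale, so neither gene could have met the 2-fold limit. Values this low rest on few reads.

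Of 16 genes that the annotation places over a member, 14 stayed under 1 FPKM in every library, among them all those over RUNX1 and RUNX3, and RUNX2-AS1 was listed at 0 throughout. SUPT3H, a transcription coactivator gene on the strand opposite RUNX2, averaged 9.48, 5.93, 4.46 and 3.76 FPKM from H1 to CD43+ cells, and the strand setting of the libraries is not given in the sources used here.

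**Figure D1:**
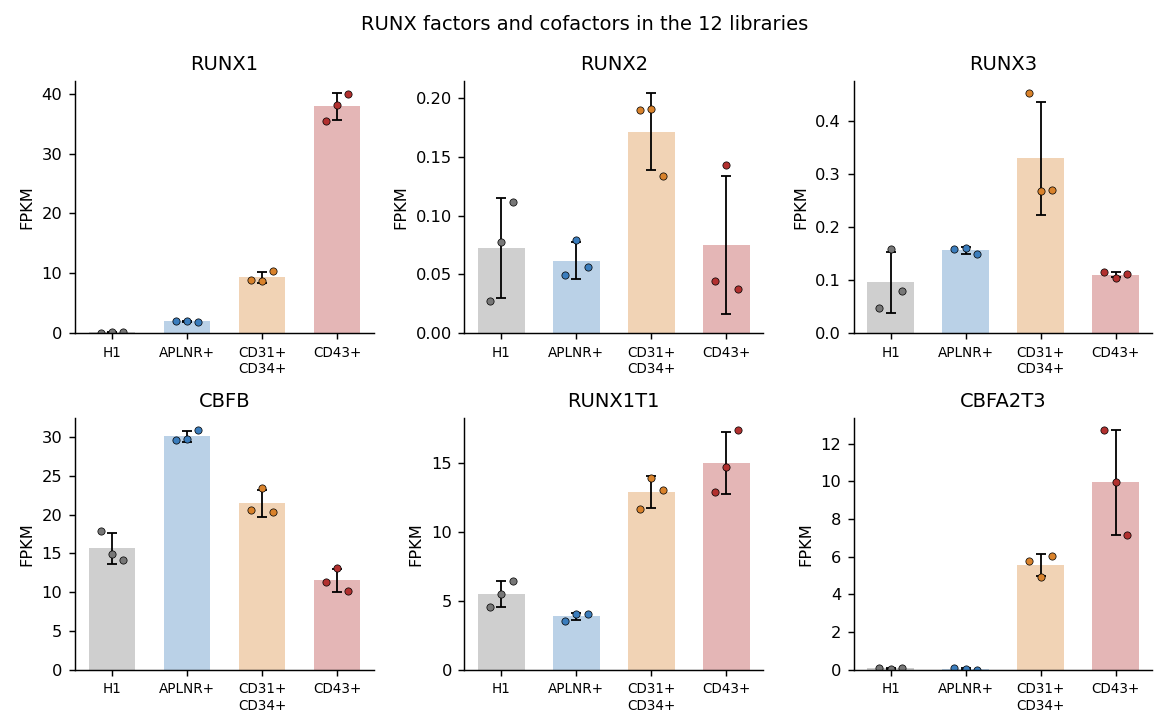
FPKM of the 6 genes in each library (points), with the mean (bar) and SD (line) of the 3 libraries of each population and a separate linear axis per gene. RUNX1 climbs at every step to 37.9 FPKM, RUNX2 and RUNX3 stay under 0.5 FPKM, and CBFB peaks in APLNR+ cells. RUNX1T1 and CBFA2T3 have their highest means in CD43+ cells, where the RUNX1T1 libraries overlap those of CD31+CD34+ cells.

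RUNX1 came to make up nearly all RUNX transcripts. It made up 33.0% to 53.6% of the summed FPKM of the 3 RUNX genes in the H1 libraries, 89.1% to 90.8% in APLNR+, 93.3% to 96.2% in CD31+CD34+ and 99.4% to 99.6% in CD43+ libraries. In H1 libraries that sum was only 0.162 to 0.444 FPKM, so the H1 shares rest on few reads. The log2 ratio of RUNX1 to RUNX2 within a library, with 1 FPKM added to each, was 0.07 ± 0.09 in H1 cells and 5.18 ± 0.11 in CD43+ cells (SD, n = 3). That of RUNX1 to RUNX3 was 0.04 ± 0.02 and 5.13 ± 0.09. Both ratios differed between the populations in the exact permutation test (p = 6.49e-05, the smallest that 15400 divisions can give, and adjusted p = 8.66e-05 over 4 ratios). RUNX2 and RUNX3 reached at most 0.191 and 0.452 FPKM, so with 1 FPKM added both ratios mostly restate the rise of RUNX1. Between consecutive populations, 3 against 3 libraries cannot give a p under 0.1, and each of these steps was at that limit.

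CBFB followed another course, with its highest level in APLNR+ cells and its lowest in CD43+ cells. It held 17.9, 14.9 and 14.1 FPKM in H1 cells and 29.6, 29.8 and 31.0 FPKM in APLNR+ cells. In CD31+CD34+ cells it held 20.6, 23.4 and 20.3 FPKM, and in CD43+ cells 11.3, 13.1 and 10.1 FPKM. The libraries of no 2 populations overlapped, and the order of the means was APLNR+, CD31+CD34+, H1 and CD43+. From H1 to APLNR+ cells the change was 0.91 ± 0.11 log2 units (adjusted p = 2.36e-05), just under the 2-fold limit. It passed the limit under 3 other scalings of the libraries, at 1.005 to 1.16, with replicates 2 and 3 alone (1.02) and without H1 replicate 1 (1.00). The median change of all tested genes at this step was −0.12, and 0.07 with libraries rescaled to the same protein-coding sum.

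The later changes of CBFB were −0.47 from APLNR+ to CD31+CD34+ cells (adjusted p = 0.00219) and −0.85 from CD31+CD34+ to CD43+ cells (adjusted p = 4.80e-05), and neither reached 2-fold. Over both steps, from APLNR+ to CD43+ cells, CBFB fell by 1.32 log2 units, from 30.1 ± 0.736 to 11.5 ± 1.5 FPKM (adjusted p = 4.16e-07). In that comparison 14.1% of tested genes were raised and 19.4% lowered. Of 14840 tested genes, 72.3% had a lower mean than CBFB in H1 cells and 67.9% in CD43+ cells. No other annotated gene overlaps CBFB.

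**Figure D2:**
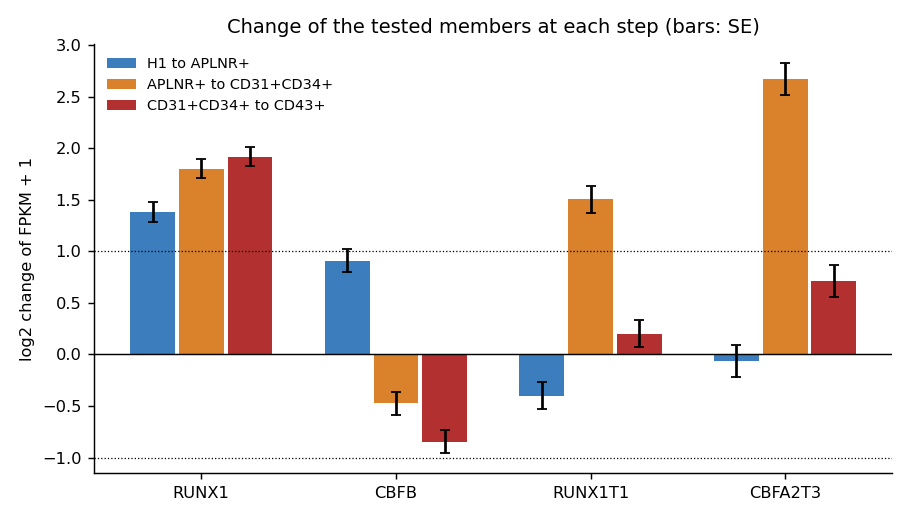
Fitted log2 change of FPKM + 1 at each of the 3 consecutive steps for the 4 genes that passed the filter, with the SE of the fit, and dotted lines at the 2-fold limit. RUNX1 passes the limit at each step, CBFB at none, and RUNX1T1 and CBFA2T3 at the step from APLNR+ to CD31+CD34+ cells.

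Because CBF-beta pairs with a RUNX protein, the transcripts of the partners were set against each other within each library. In H1 libraries, where the summed FPKM of the 3 RUNX genes was only 0.162 to 0.444, CBFB exceeded that sum 33.6-fold to 111-fold. CBFB exceeded it 13.0-fold to 15.3-fold in APLNR+ libraries. In CD31+CD34+ libraries it was still 1.90-fold to 2.55-fold the larger. In the 3 CD43+ libraries the order was turned, with a RUNX sum of 35.7 to 40.2 FPKM that was 2.92-fold to 3.96-fold that of CBFB. The log2 ratio of CBFB to the RUNX sum, with 1 FPKM added to each, went from 3.68 ± 0.30 in H1 and 3.30 ± 0.09 in APLNR+ cells to 1.06 ± 0.20 in CD31+CD34+ and −1.65 ± 0.21 in CD43+ cells (SD, n = 3). It differed between populations in the exact permutation test (p = 6.49e-05, the smallest possible, and adjusted p = 8.66e-05 over 4 ratios). The mean RUNX sum went from 0.297 FPKM in H1 to 38.1 FPKM in CD43+ cells, while CBFB stayed between 10.1 and 31.0 FPKM. The ratio therefore mostly restates the rise of RUNX1. The 1 FPKM added also narrows the fall of the ratio from H1 to APLNR+ cells. FPKM compares transcripts per length and says nothing of protein amounts.

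**Figure D3:**
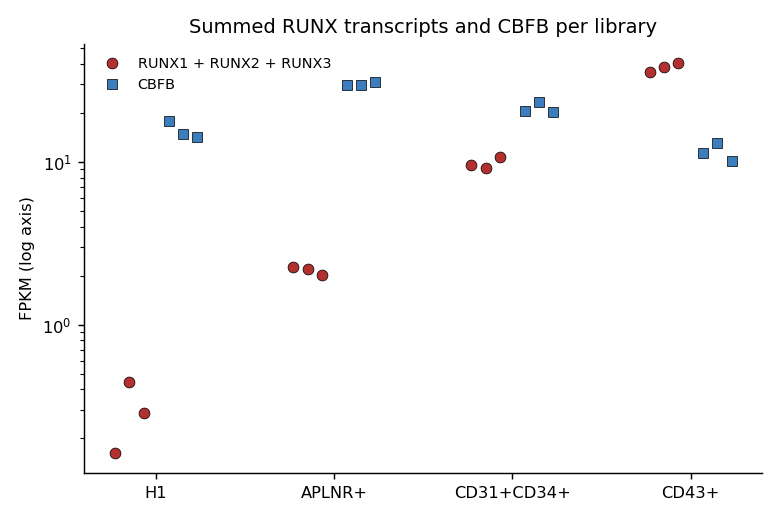
Summed FPKM of RUNX1, RUNX2 and RUNX3 (circles) and FPKM of CBFB (squares) in each of the 12 libraries, on a log axis. The RUNX sum lies below CBFB in all libraries of H1, APLNR+ and CD31+CD34+ cells and above it in all 3 CD43+ libraries.

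Both corepressors of the ETO family rose between the APLNR+ and CD31+CD34+ populations, from different starting levels. RUNX1T1 was present from the start, at 4.53, 5.52 and 6.41 FPKM in H1 cells and 3.58, 4.05 and 4.02 FPKM in APLNR+ cells. It held 11.7, 14.0 and 13.0 FPKM in CD31+CD34+ cells and 12.9, 14.7 and 17.4 FPKM in CD43+ cells, and the libraries of these latter populations overlapped. It rose by 1.51 ± 0.13 log2 units from APLNR+ to CD31+CD34+ cells (adjusted p = 6.94e-07). The changes before and after, of −0.40 (adjusted p = 0.0201) and 0.20 (adjusted p = 0.218), were not called. Against H1 cells RUNX1T1 was raised in CD43+ cells, by 1.31 log2 units (adjusted p = 1.75e-06), and in CD31+CD34+ cells, by 1.10 (adjusted p = 7.31e-06). The latter change was 0.99, just short of 2-fold, without H1 replicate 1.

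CBFA2T3 was near 0 in the early populations and rose in CD31+CD34+ cells. It held 0.105, 0.0536 and 0.0664 FPKM in H1 cells and 0.0707, 0.0182 and 0.00580 FPKM in APLNR+ cells, which overlapped. It then stood at 5.75, 4.90 and 6.04 FPKM in CD31+CD34+ cells and at 12.7, 9.97 and 7.13 FPKM in CD43+ cells, above all early libraries. The rise from APLNR+ to CD31+CD34+ cells was 2.67 ± 0.16 log2 units (adjusted p = 2.22e-08). The further change of 0.71 in CD43+ cells did not reach 2-fold (adjusted p = 0.00213) and ranged from 0.53 to 0.91 when single libraries were left out. AC092384.3, an annotated transcript on the same strand within a CBFA2T3 intron, averaged 0.488 FPKM in CD31+CD34+ and 1.02 FPKM in CD43+ cells, and the table does not show how reads were shared out between the 2 genes.

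The 2 corepressor transcripts came closer in amount. CBFA2T3 was at most 0.0231 of RUNX1T1 in the H1 and APLNR+ libraries, 0.351 to 0.494 of it in CD31+CD34+ libraries and 0.409 to 0.986 of it in CD43+ libraries. The log2 ratio with 1 FPKM added went from −2.58 ± 0.24 in H1 cells to −0.57 ± 0.58 in CD43+ cells (SD, n = 3), and differed between populations (exact permutation p = 0.00136; adjusted p = 0.00136 over 4 ratios). Between the last 2 populations the ratios overlapped (exact permutation p = 0.3, with 0.1 the smallest that 3 against 3 can give).

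Counted over the steps, 1 of the 6 genes (RUNX1) was called from H1 to APLNR+ cells, where 8.3% of tested genes went up and 7.62% went down by the same rule. RUNX2 and RUNX3 were not tested and so could not be called at any step. At the middle step 3 were raised (RUNX1, RUNX1T1 and CBFA2T3), while 12.5% of tested genes went up and 17.1% down. At the last step 1 was raised (RUNX1), while 5.58% of tested genes went up and 8.79% down. Between the ends, H1 and CD43+ cells, the same 3 genes as at the middle step were raised, beside 14.6% raised and 22.5% lowered, and between H1 and CD31+CD34+ cells they were raised beside 16.9% raised and 23.2% lowered. RUNX1 and CBFA2T3 passed the filter through the populations where they are high, so these counts describe the genes and support nothing further. With libraries rescaled to the same protein-coding sum, 68.5% of called genes were raised at the first step and 29.02% at the next, against 52.1% and 42.3% as deposited.

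The CD43+ cells in which RUNX1 was highest carried markers of more than 1 blood lineage. All 7 erythroid markers averaged at least 1 FPKM there and summed to 632 to 757 FPKM per library, against 28.4 to 33.8 in CD31+CD34+ cells. All 6 megakaryocyte markers did so too, summing to 723 to 779 FPKM against 10.5 to 15.9. A single gene made up most of each sum, with means of 525 FPKM for HBE1 and 575 FPKM for ITGA2B. EPOR, alone among the 7 erythroid markers, was lower in CD43+ than in CD31+CD34+ cells, at 4.73 against 7.53 FPKM. Myeloid markers summed to 18.4 to 18.7 FPKM, with 2 of 7 at 1 FPKM and ELANE, a neutrophil granule protease, listed at 0 in every library, and lymphoid markers summed to 7.75 to 8.36 FPKM. Endothelial markers were still present in CD43+ cells, at 408 to 523 FPKM for the sum of 7, against 717 to 962 in CD31+CD34+ cells. The 7 smooth muscle and fibroblast markers summed to 355 to 397 FPKM in CD31+CD34+ cells, the population in which RUNX2 and RUNX3 had their highest means, and to 120 to 149 in CD43+ cells. Most of the former sum was collagen, with means of 251 FPKM for COL1A2 and 85.0 FPKM for COL1A1. The smooth muscle actin gene ACTA2 averaged 13.3 FPKM in CD31+CD34+ and 34.8 FPKM in CD43+ cells, PDGFRB 13.2 and 17.5 FPKM, and MYH11 was under 0.2 FPKM in every population. Pluripotency markers summed to 1810 to 1902 FPKM in H1, 561 to 643 in APLNR+, 298 to 375 in CD31+CD34+ and 146 to 172 in CD43+ cells. Mesoderm markers summed to 527 to 573 FPKM in APLNR+ cells and 389 to 437 in CD31+CD34+ cells, where APLNR alone averaged 403 FPKM. The part of these cell types in the RUNX results was not tested.

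RUNX1 acts on blood genes that were listed as its known targets, and 15 of the 19 in the list passed the filter. From H1 to APLNR+ cells 2 were raised (CSF3R and MYL9) and 4 lowered (ITGA2B, KIT, PF4 and PRKCQ, of which PF4 was listed at 0 in all 3 APLNR+ libraries). With libraries rescaled to the protein-coding sum, 2 rather than 4 were lowered. At the middle step 7 were raised and 0 lowered by limma, with a median change of 0.91 log2 units against −0.01 for all tested genes (11 raised and 2 lowered at an unadjusted p under 0.05). From CD31+CD34+ to CD43+ cells 11 were raised and 1 lowered, with a median of 2.26 against −0.005 for all tested genes. By the same rule 8.3% of all tested genes were raised and 7.62% lowered at the first step. The shares were 12.5% and 17.1% at the middle step and 5.58% and 8.79% at the last. SPI1, CSF1R and TUBB1 reached 1 FPKM in the CD43+ libraries alone and so passed the filter only through the population where they are high. With any 1 CD43+ library left out, these 3 were not tested, and 8 of 12 were raised. The lowered gene was MYL9, a myosin light chain gene of smooth muscle and platelets, at −1.14 (adjusted p = 2.15e-06). Among the 8 targets that averaged at least 5 FPKM, 6 were raised at that last step.

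The repressor genes GFI1 and GFI1B, which shut down endothelial genes in emerging blood cells, rose at the middle step. GFI1B went from 0.0779 ± 0.135 to 23.7 ± 3.80 FPKM (4.52 log2 units, adjusted p = 4.03e-10) and GFI1 from 0.350 ± 0.289 to 22.9 ± 1.34 FPKM (4.16 log2 units, adjusted p = 1.42e-10). NFE2, a factor of erythroid and megakaryocyte cells, rose from 0.675 ± 0.249 to 6.17 ± 0.485 FPKM and then to 105 ± 15 FPKM (3.88 log2 units at the last step, adjusted p = 6.56e-10). The 2 largest rises of the list at the last step were those of platelet genes: ITGA2B (CD41) went from 9.39 ± 2.51 to 575 ± 8.75 FPKM (adjusted p = 6.56e-10), and PF4 from 1.43 ± 0.416 to 59.7 ± 11.96 FPKM (adjusted p = 3.92e-10). MPO and ELANE, myeloid granule genes, stayed below the filter. ITGA2B, PF4, MYB, CSF1R and GFI1B also stand among the marker lists given above, and SPI1, GFI1 and GFI1B among the partners below.

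**Figure D4:**
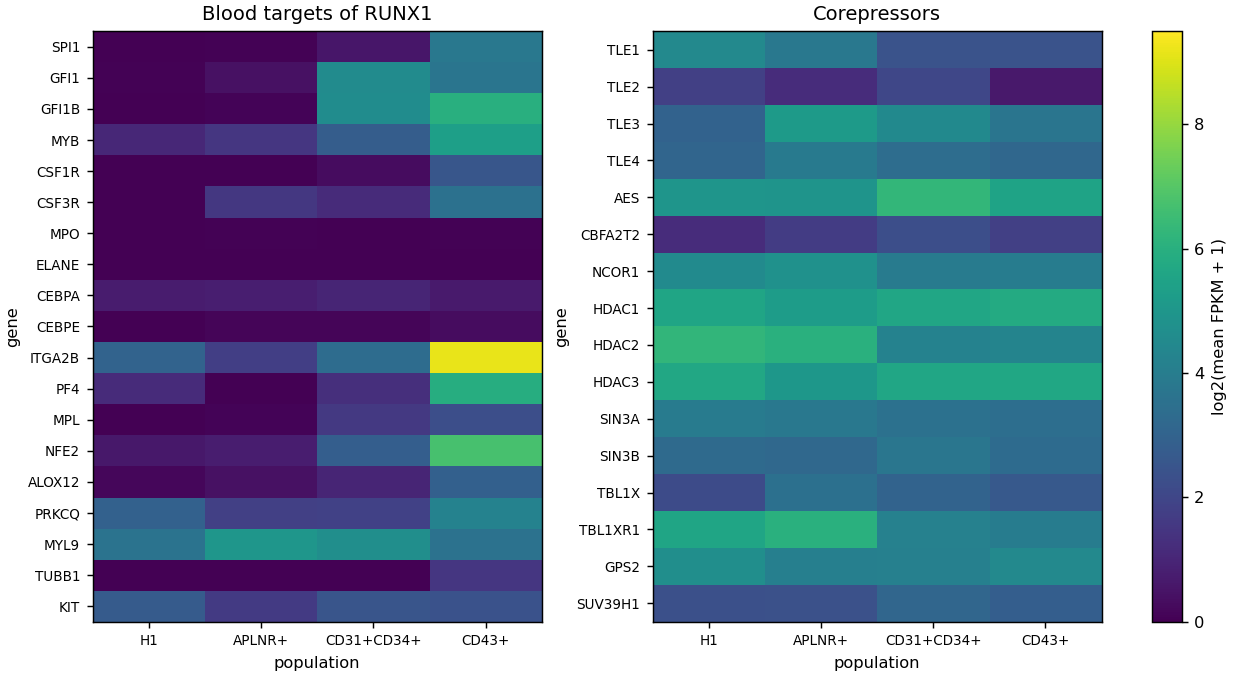
Mean level of the listed blood targets of RUNX1 (left) and of the corepressors (right) in each population, as log2(mean FPKM + 1) on 1 color scale. Most blood targets are brightest in CD43+ cells, with ITGA2B at 575 FPKM, and among the corepressors HDAC2 and TBL1XR1 are brighter in H1 and APLNR+ cells than in the later populations.

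The blood factors that bind enhancers together with RUNX1 were raised mostly at the middle step. Of 14 such partners, all of them tested, 1 was raised from H1 to APLNR+ cells, while the middle step raised 9 and lowered 0 by limma, and the last step raised 3 and lowered 1. By the same rule 8.3% of all tested genes were raised and 7.62% lowered at the first step. The shares were 12.5% and 17.1% at the middle step and 5.58% and 8.79% at the last. At an unadjusted p under 0.05 the middle step raised 13 and lowered 0. The median change of the list there was 3.66 log2 units against −0.01 for all tested genes, but several partners passed the filter only through the later populations. GATA2, a factor of mesoderm and blood stem cells, was the early gene, going from 0.0689 ± 0.0329 to 4.71 ± 0.271 FPKM (2.42 log2 units, adjusted p = 8.49e-09). TAL1 reached 82.9 ± 4.15 FPKM in CD31+CD34+ cells (6.34 log2 units, adjusted p = 3.44e-12), FLI1 103 ± 7.45 FPKM (6.23 log2 units) and LMO2 79.2 ± 9.71 FPKM (5.98 log2 units), each from under 0.5 FPKM. At the last step GATA1, the erythroid and megakaryocyte factor, rose from 1.83 ± 0.480 to 56.1 ± 8.34 FPKM (4.34 log2 units, adjusted p = 2.28e-10), and SPI1 (PU.1) from 0.474 ± 0.228 to 12.8 ± 1.72 FPKM (3.23 log2 units, adjusted p = 1.09e-09). The other raised gene was GFI1B, and the lowered one was ERG, an ETS factor of endothelium and stem cells, which went from 31.6 ± 4.61 to 10.9 ± 2.79 FPKM (−1.47, adjusted p = 9.67e-06).

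Of the other corepressors of RUNX proteins, most were not called at any given step, and the called ones went in both directions. Of 16 measured, 2 were raised from H1 to APLNR+ cells, the middle step raised 1 and lowered 3, and the last step lowered 1. By the same rule 8.3% of all tested genes were raised and 7.62% lowered at the first step. The shares were 12.5% and 17.1% at the middle step and 5.58% and 8.79% at the last. Counts this small do not set the list apart from all tested genes. The median changes of the list were −0.04, −0.13 and −0.19 log2 units, beside −0.12, −0.01 and −0.005 for all tested genes. TLE3, a Groucho corepressor that binds the end of RUNX proteins, went from 6.92 ± 1.63 to 35.4 ± 3.01 FPKM in APLNR+ cells (2.22 log2 units, adjusted p = 1.63e-06), and TBL1X, a subunit of a corepressor complex with histone deacetylase activity, from 3.49 ± 1.32 to 10.3 ± 0.300 FPKM. In CD31+CD34+ cells the histone deacetylase HDAC2 was lowered from 64.8 ± 7.16 to 17.7 ± 1.12 FPKM (−1.81, adjusted p = 9.01e-09) and TBL1XR1 from 63.6 ± 6.12 to 17.2 ± 2.62 FPKM (−1.83, adjusted p = 7.04e-08). TLE1 was lowered too (−1.37), and AES, a short Groucho relative, was raised (1.36). In CD43+ cells TLE2 was lowered from 3.10 ± 0.905 to 0.558 ± 0.260 FPKM (−1.39, adjusted p = 1.79e-05).

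Among coactivators and enzymes that modify RUNX proteins, 11 of 12 were tested, and all calls at the 3 steps fell on the first, where the median change was 0.23 log2 units against −0.12 for all tested genes. From H1 to APLNR+ cells CDK6, a cyclin-dependent kinase that binds RUNX1, went from 4.31 ± 0.349 to 20.1 ± 2.44 FPKM (1.99 log2 units, adjusted p = 7.78e-08). KAT6A, an acetyltransferase that binds RUNX1, was raised by 1.04 and CREBBP by 1.01, and the arginine methyltransferase PRMT6 was lowered (−1.04). Of all tested genes, 8.3% were raised and 7.62% lowered at this step. Without H1 replicate 1 the call of CDK6 was left and those of KAT6A, CREBBP and PRMT6 were lost. That of PRMT6 was also lost without APLNR+ replicate 3, under upper-quartile scaling and under rescaling to the protein-coding sum. At each later step limma called 0 of the 11. By the same rule 12.5% of all tested genes were raised and 17.1% lowered at the middle step, and 5.58% and 8.79% at the last. At an unadjusted p under 0.05 the middle step raised 4 of the 11 and lowered 1, and the last step raised 2 and lowered 5.

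RUNX2 itself was scarce, and 5 of the 9 listed bone targets of RUNX2 passed the filter. SP7 (osterix), a bone factor, passed 1 FPKM in CD31+CD34+ cells alone, at 8.58 ± 1.28 FPKM, between 0.0493 ± 0.0215 FPKM in APLNR+ and 0.162 ± 0.00715 FPKM in CD43+ cells (3.18 and −3.04 log2 units, adjusted p = 1.08e-10 and 3.25e-10). Because SP7 reached 1 FPKM in those 3 libraries only, it was not tested when any of them was left out. COL1A1, the collagen I chain, followed the same course, from 12.4 ± 2.12 to 85.0 ± 8.14 and then to 19.2 ± 0.485 FPKM (2.69 and −2.09 log2 units). SPP1, encoding osteopontin, was raised to 16.2 ± 2.37 FPKM in APLNR+ cells and lowered to 3.02 ± 0.891 FPKM in CD31+CD34+ cells. ALPL, an alkaline phosphatase that stem cells also express, was lowered from H1 to APLNR+ cells (−1.04) and again in CD43+ cells (−2.54). The earlier of these calls was lost under all 3 other scalings and without APLNR+ replicate 3. COL1A1 also stands among the fibroblast markers. The median change of the 5 genes was 0.27, 0.37 and −2.09 log2 units at the 3 steps, beside −0.12, −0.01 and −0.005 for all tested genes. With so few genes, the −2.09 is the change of COL1A1 itself. The medians include SP7, which passed the filter only where it was high, so they describe these 5 genes alone.

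The genes whose pattern over the 12 libraries was most like that of each member are given as a description, since the correlations rest on the differences between 4 populations. For RUNX1 these were AKR1C1 (Pearson r = 0.996 on log2(FPKM + 1)), CCND3, AMHR2, PSD4 and FOSB, out of 7319 protein-coding genes whose highest population mean was at least 10 FPKM. In all, 168 of these genes had an r of at least 0.95 with RUNX1. CCND3, encoding cyclin D3, went from 6.42 to 11.97, 39.0 and 112.7 FPKM. For CBFB they were CYR61 (r = 0.983), CLDN11, NQO1, ANKRD6 and SH3BP4, and CYR61 went from 3.97 to 17.8, 10.2 and 2.46 FPKM. For RUNX1T1 they were ST7 (r = 0.994), VPS52, GLA, C15orf39 and CARD8, and for CBFA2T3 they were VGLL4 (r = 0.994), GIMAP5, CLEC11A, ISG15 and CAMK1. Among the members, r was 0.944 for RUNX1T1 and CBFA2T3, 0.935 for RUNX1 and CBFA2T3 and −0.446 for RUNX1 and CBFB.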

How the data were processed

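Members, gene lists and most alternatives were chosen with earlier results of these data known. The authors deposited a single FPKM table of 58365 lines with values, 1 column for each of 12 libraries, named by gene symbol, and 1 line of text was left out. Submitters' notes name BWA, Bowtie, RSEM and hg19, without versions or roles, so no hg19 coordinates are given. Total RNA was made into TruSeq libraries. Whole reads were not recovered, and no count model was run. Depth is known only relative to CD43+ replicate 3, and the 3 libraries per population limit the precision.

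Groups came from sample titles. Values were transformed as log2(FPKM + 1), and 14840 genes with 1 FPKM or more in at least 3 libraries were fitted with limma 3.58.1 in R 4.3.3 (4 populations in 1 model, eBayes with trend, no covariate), with Benjamini-Hochberg adjustment. Where a symbol stood on several lines (345 symbols, no member), only its highest line by mean was used. Adjusted p values of genes are from limma. Ratios within libraries were tested by exact two-sided permutation. On simulated data for H1 to APLNR+ (14840 genes, 200 changed by 2 log2 units), limma recovered 200 with 1 false call. The changed genes were drawn from those with a mean log2(FPKM + 1) above 3, with independent normal noise. Recovery of lower genes, or of changes near the 2-fold limit, was therefore not tested. Named genes were all members, up to 3 called genes with the largest change per list and step, and the 5 genes most correlated with each tested member. Genes annotated over a member were named too. AES, CREBBP, KIT, PF4 and PRKCQ at the early steps, and GFI1B and MYL9 at the last, were named to complete counts after their values were seen. CSF1R and TUBB1, and the markers named singly, were likewise chosen after their values were seen. Promoters were RefSeq windows, gene models GENCODE release 29. Same-numbered libraries deviated together most clearly for replicate 1 (r of 0.196 to 0.429 between populations), and the replicate block was fitted as an alternative. Alternatives varied the pseudocount, filter, scaling, block, model and libraries. A gene of the corepressor list is not reported here.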

Additional observations from a re-analysis of the deposited data

How the results depend on the processing

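No tested member reversed direction under any alternative run. The calls of RUNX1 at each step, and of RUNX1T1 from APLNR+ to CD31+CD34+ cells and from H1 to CD43+ cells, held under all of them, and those of CBFA2T3 did so except with a mean of at least 5 FPKM, which it did not reach. Members called from H1 to APLNR+ cells numbered 2 instead of 1, with CBFB added, under upper-quartile scaling, quantile normalization, rescaling to the protein-coding sum and replicates 2 and 3 alone, and 1 to 2 when single libraries were left out (2 without H1 replicate 1). With no minimum change they numbered 3 at that step and 3 from CD31+CD34+ to CD43+ cells. All genes called numbered 3632 from H1 to APLNR+ cells and 3605 from CD31+CD34+ to CD43+ cells with a pseudocount of 0.1, against 2363 and 2133. With a mean of at least 5 FPKM they numbered 1193, 1313 and, from H1 to CD43+ cells, 3309, where fewer genes were tested. With no minimum change they numbered 8594, 10948 and 7961 at the 3 steps and 11076 from H1 to CD43+ cells. Dropping the 2-fold limit from the same fit can only add calls. Apart from that and from the fewer genes tested, the cause was not tested. Rescaling to the protein-coding sum moved the median of all genes from −0.12 to 0.07 at the first step and from −0.01 to −0.20 at the next.

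The labels do not say what a replicate number marks. After removal of population means, same-numbered libraries correlated by −0.0214 to 0.429. Those numbered 1 correlated with each other by 0.196 to 0.429 and negatively with all others, and all 3 same-numbered pairs passed 0.1 between H1 and CD43+ and between CD31+CD34+ and CD43+ cells, but not in the other comparisons. With the replicate block, 2369, 4410, 2140 and 5506 genes were called at the 3 steps and from H1 to CD43+ cells, against 2363, 4400, 2133 and 5501 without it, and the members called were 1, 3, 1 and 3 as before. The difference of each of the 4 ratios between CD43+ and H1 cells kept its sign in the 15 alternatives run for it. These changed the pseudocount or scaling or left out a single library, and no exact p was computed with a library left out. RUNX2 and RUNX3 could be fitted only without the filter on low values.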
